A study of Mus musculus with 8 samples.

Results

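The 8 genes described here encode the sensors, the adaptor, the proteases and the pore former of the inflammasome: Nlrp3, Nlrc4, Aim2, Mefv, Pycard, Casp1, Casp4 and Gsdmd. They were chosen by name as parts of this pathway, with earlier results of these data known, and all 8 were measured among 22180 genes tested. Where a gene had more than 1 array row, the brightest on average over the 8 arrays stood for it. The arrays carried total RNA of hepatic macrophages from male FVB/N mice aged 8 weeks. All mice received acetaminophen at 350 mg/kg into the peritoneum, an overdose that kills hepatocytes. One group had been injected 12 h earlier, through the tail vein, with 25 µg of recombinant transferrin (rTF, the plasma iron carrier), and the other with 50 µg of recombinant CPS1 (rCPS1, a urea cycle enzyme of hepatocyte mitochondria). Each group held 4 arrays, and both the protein and its amount differed between them. No group without acetaminophen or without a protein was analysed here, so the values give no level for the uninjured liver. Each sample title says Mouse1, so the labels do not show whether the replicates were separate animals, and the p-values below then cover only sample-to-sample spread, part or all of which could be technical.

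Inflammasomes are cytosolic complexes in which a sensor meets a danger signal, recruits the adaptor ASC (the product of Pycard) and activates caspase-1. Caspase-1 matures interleukin 1 beta and interleukin 18 and cuts gasdermin D, whose freed part opens pores in the plasma membrane and brings on the lytic death called pyroptosis. In the non-canonical route, mouse caspase-4 (long named caspase-11) binds bacterial lipopolysaccharide itself and cuts gasdermin D without ASC. Much of this regulation acts on protein assembly and cleavage, which an mRNA array does not measure.

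All values are log2 levels on the authors' scale, and a level of one gene was not set against that of another. All 8 members lay above 3.63, the median of all 41345 array rows, of which 16010 carried no gene symbol. The brightest row stood for a gene with several, so lying above this median is only weak evidence of expression. A filter on dim rows, used as an alternative, kept 12315 of the 22180 genes tested. The array medians ran from 3.55 to 3.68, and precision is limited by having 4 arrays in a group. The macrophage label was checked against 8 measured macrophage markers (Csf1r, Cd68, Fcgr1, Mertk, Aif1, Itgam, Cd14 and Lgals3). None was at or under the median row. Their mean level lay between 8.80 and 8.97 in the rTF arrays and between 8.65 and 8.76 in the rCPS1 arrays, which did not overlap, and 6 of 8 markers had lower means with rCPS1. The groups did not overlap for 2 of 8, Itgam and Cd14, both lower with rCPS1, against 1.97% of all genes. None of the 8 had a limma adjusted p under 0.05. The part of these markers in the values of the members was not tested. Markers of hepatocytes (10 of 10) and of sinusoidal endothelium (10 of 10) were also above the median row. The means of the rTF and rCPS1 arrays ran from 7.36 to 8.02 and 7.15 to 7.83 for hepatocyte markers, 11.16 to 11.42 and 11.26 to 11.43 for endothelial markers, and 5.48 to 6.27 and 5.29 to 6.59 for the 7 B cell markers. In bulk RNA, fewer cells of a type and less RNA per cell cannot be told apart.

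No member differed between the groups by limma with Benjamini-Hochberg adjustment. The adjusted p of the members lay between 0.980 and 0.998, and 0 of the 22180 genes tested (0%) had an adjusted p under 0.05. At an unadjusted p under 0.05 the count was 0 of 8 members, against 4.67% of all genes. With rCPS1 the values of Mefv, Pycard, Nlrp3, Aim2 and Nlrc4 were lower and those of Casp4, Casp1 and Gsdmd were higher, so 5 of 8 lay below rTF, against 54.4% of all genes. The median log2 difference was -0.032 over the members and -0.018 over all genes. Without regard to sign, the median size of the difference was 0.17 over the members and 0.11 over all genes. The groups overlapped for each of the 8 members, against 2.92% of all genes whose groups did not overlap. The largest difference in either direction was 0.27 on the log2 scale.

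The highest values of the members fell mostly in 2 arrays of the rTF group, and the lowest values were more spread out. rTF replicate 1 held the highest value of all 8 arrays for Nlrp3, Nlrc4, Mefv and Gsdmd, and the lowest for Pycard. Across all genes, 16.1% had their highest and 12.98% their lowest value in this array. rTF replicate 2 held the lowest value for Casp1 and Casp4 and the highest for Aim2 and Pycard, against 14.3% and 19.9% of all genes. The lowest values of Aim2 and Gsdmd were in rTF replicate 3, against 13.4% of all genes. The lowest value of Nlrc4 was in rTF replicate 4, of Nlrp3 in rCPS1 replicate 1 and of Mefv in rCPS1 replicate 4. Those arrays held the lowest value of 8.12%, 12.4% and 11.4% of all genes. The standard deviation was larger in the rTF group for 7 of 8 members (all but Nlrp3), against 54.3% of all genes, and the median ratio of rTF to rCPS1 standard deviations was 2.64 over members and 1.08 over all genes. With rTF replicates 1 and 2 both left out, an alternative chosen after the data were seen, 2 of 8 members remained below rTF. The smallest limma adjusted p of a member was then 0.9999.

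**Figure D1:**
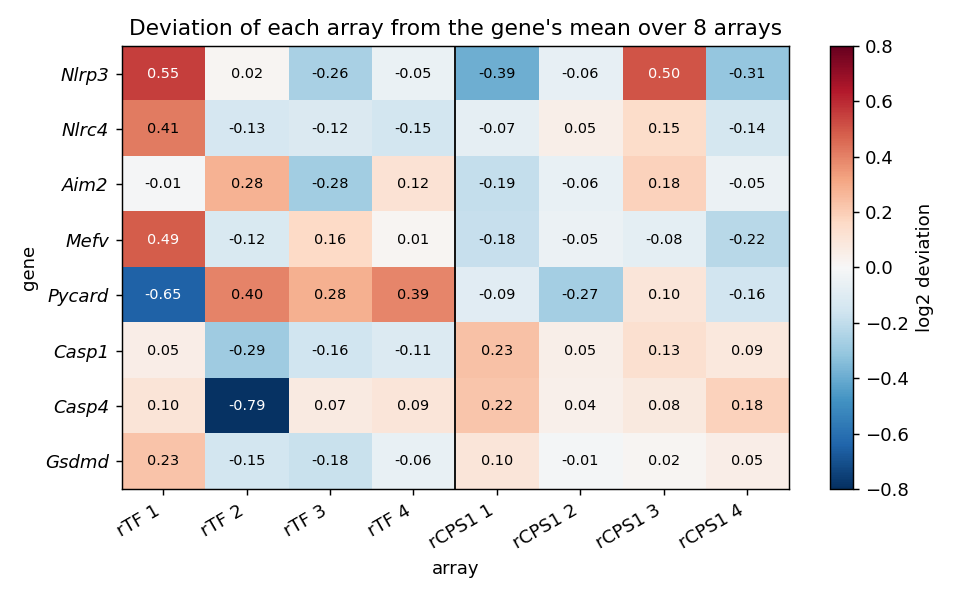
Log2 deviation of each array (columns, rTF replicates left of the line and rCPS1 replicates right) from the mean over 8 arrays of each gene (rows), in colour and printed in each cell. In rTF replicate 1, Nlrp3, Nlrc4, Mefv and Gsdmd were at their highest and Pycard at its lowest, and Casp4 was at its lowest in rTF replicate 2.

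Of the sensors, Nlrp3, which responds to potassium efflux and other signs of membrane or organelle damage, differed little between groups and varied widely within both. Nlrp3 (probe set 17250249) was at 8.20, 7.66, 7.39 and 7.59 in rTF replicates 1 to 4 and at 7.25, 7.58, 8.14 and 7.34 in rCPS1 replicates 1 to 4. One array of each group, rTF replicate 1 and rCPS1 replicate 3, was high, and the remaining arrays of both groups overlapped. The group means were 7.71 ± 0.35 and 7.58 ± 0.40 (SD, n = 4 each), a log2 difference of -0.13 ± 0.23 (SE), with a limma adjusted p of 0.98. The sign turned without rTF replicate 1, where the difference was 0.033. The same 2 arrays had the highest means of the 12 Kupffer cell markers, at 9.59 and 9.82, against 8.92 to 9.57 in the other 6 arrays. The 9.57 was that of rCPS1 replicate 1, where Nlrp3 was at its lowest, 7.25. The part of those cells in the Nlrp3 values was not tested.

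Nlrc4, which joins NAIP proteins once these have bound bacterial flagellin or secretion system parts, had nearly equal group means. Nlrc4 (probe set 17347236) was at 6.63, 6.08, 6.10 and 6.07 in rTF replicates 1 to 4 and at 6.14, 6.26, 6.36 and 6.07 in rCPS1 replicates 1 to 4. A single array, rTF replicate 1, stood above the others. The difference was -0.0080 ± 0.15 (SE), with a 95% interval from -0.34 to 0.32, and without rTF replicate 1 it was 0.13 ± 0.12.

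Aim2, a sensor of double-stranded DNA in the cytosol, showed overlapping groups as well. Aim2 (probe set 17219643) was at 7.39, 7.68, 7.12 and 7.52 in rTF replicates 1 to 4 and at 7.21, 7.34, 7.58 and 7.36 in rCPS1 replicates 1 to 4. The rTF values held both the highest and the lowest of the 8, and the rCPS1 values fell between them. The difference was -0.055 ± 0.14 (SE), with a 95% interval from -0.37 to 0.26, and it was 0.028 without rTF replicate 2.

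Mefv encodes pyrin, the sensor that reacts when bacterial toxins switch off RhoA. Mefv (probe set 17327580) was at 8.97, 8.36, 8.64 and 8.50 in rTF replicates 1 to 4 and at 8.30, 8.44, 8.40 and 8.26 in rCPS1 replicates 1 to 4. All rCPS1 arrays lay below 3 of the rTF arrays, and rTF replicate 2 fell among the rCPS1 values. The means were 8.62 ± 0.26 and 8.35 ± 0.084 (SD, n = 4 each), a difference of -0.27 ± 0.14 (SE), or 1.20-fold lower, with a limma unadjusted p of 0.0862 and an adjusted p of 0.98. The two-sided exact permutation p was 0.0857, and the smallest that 4 against 4 arrays can give is 0.0286. Without rTF replicate 1 the difference was -0.15, and without rTF replicate 2 it was -0.35, with a limma unadjusted p of 0.0304 and an adjusted p of 0.9988. Pyrin is made by monocytes and neutrophils, and markers of both cells were lower with rCPS1. The 11 measured monocyte markers averaged 8.55 to 8.96 in the rTF arrays and 7.99 to 8.20 in the rCPS1 arrays, with 11 of 11 lower. The 13 neutrophil markers averaged 6.21 to 6.92 and 5.06 to 5.92, with 13 of 13 lower. Of the neutrophil markers Camp alone was at or under the median row. Within the rTF group, replicate 1 had the highest Mefv value and the lowest neutrophil marker mean, 6.21. Replicate 2 had the lowest rTF value of Mefv and the highest neutrophil marker mean, 6.92. The monocyte marker means of these arrays were 8.62 and 8.58. The part of monocytes and neutrophils in the Mefv difference was not tested.

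**Figure D2:**
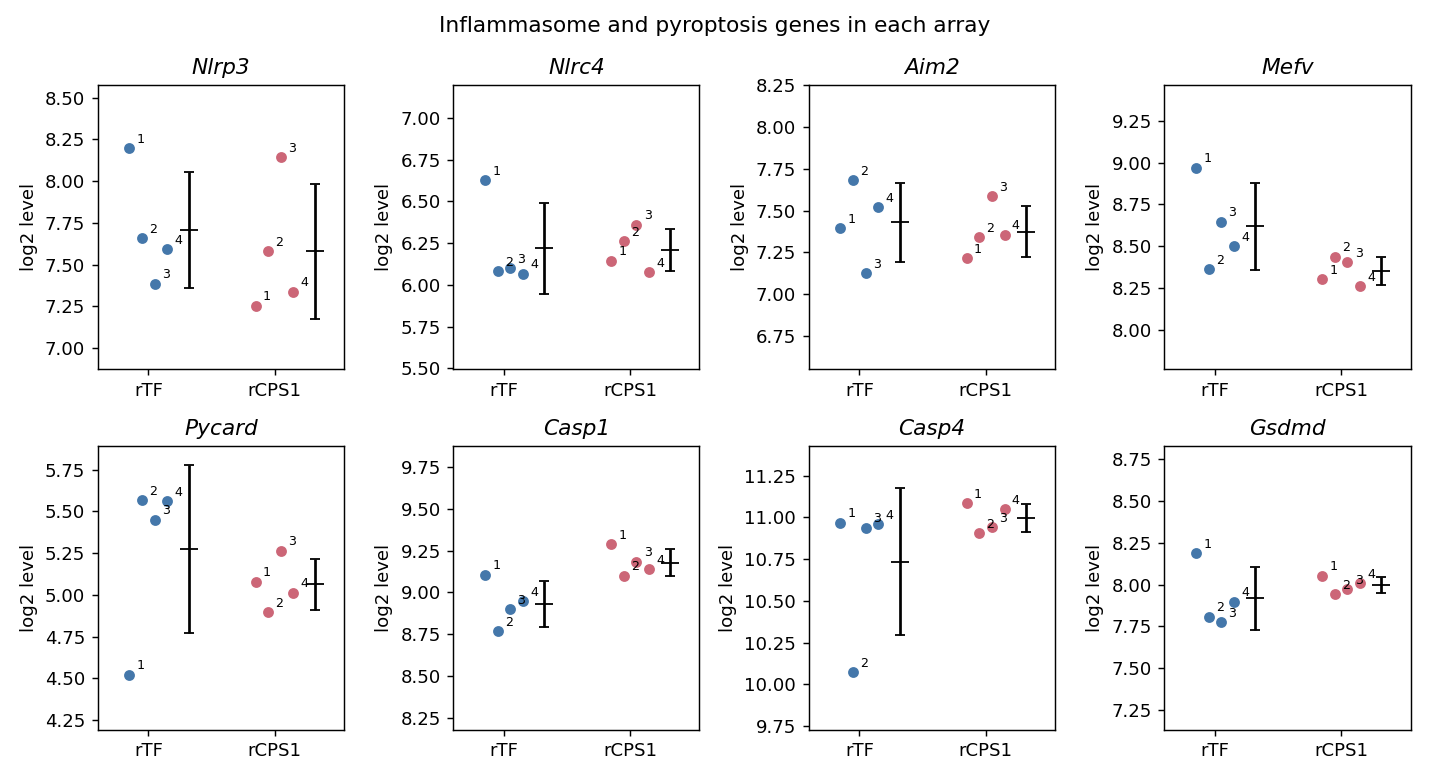
Log2 level of each member (vertical axes, all spanning the same range of log2 units) in the rTF and rCPS1 arrays, with the replicate number beside each point and the group mean ± SD (n = 4) as a black bar. Casp1 values of the 2 groups met at 1 array, rTF replicate 1, whereas Casp4 and Pycard each had a single low rTF array.

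Pycard, whose product ASC links sensors to caspase-1 and polymerises into the ASC speck, had the largest spread of the members in the rTF group. Pycard (probe set 17496839) was at 4.52, 5.56, 5.45 and 5.56 in rTF replicates 1 to 4 and at 5.08, 4.89, 5.26 and 5.01 in rCPS1 replicates 1 to 4. The rCPS1 arrays all lay below rTF replicates 2, 3 and 4 and above rTF replicate 1. With all arrays the means were 5.27 ± 0.51 and 5.06 ± 0.15 (SD, n = 4 each), a difference of -0.21 ± 0.22 (SE), with a limma unadjusted p of 0.368. Without rTF replicate 1 the difference was -0.46 ± 0.12, with a limma unadjusted p of 0.00483 and an adjusted p of 0.707, so it did not pass in that setting either. That array also had the lowest rTF mean of T and NK cell markers (6.18, against 6.41 to 7.45). Its dendritic cell marker mean was the lowest in the rTF group too (5.93, against 6.18 to 6.50). With rCPS1, 11 of 12 T and NK cell markers and 6 of 7 dendritic cell markers had lower means. In rCPS1 replicates 2 and 4 the T and NK cell marker mean was lower still (5.96 and 5.92), with Pycard at 4.89 and 5.01. rTF replicate 1 was also lowest of the rTF arrays for B cell, neutrophil and endothelial markers and highest for Kupffer cell and macrophage markers. The part of these cells in the Pycard value was not tested.

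The inflammatory caspases were the members with the largest positive values. Casp1, the protease that all of these sensors converge on, differed by 0.25 ± 0.11 (SE), or 1.19-fold higher with rCPS1, which narrowly missed an unadjusted p of 0.05. Casp1 (probe set 17514424) was at 9.11, 8.77, 8.90 and 8.95 in rTF replicates 1 to 4 and at 9.29, 9.10, 9.18 and 9.14 in rCPS1 replicates 1 to 4. Every rCPS1 array lay above 3 of the rTF arrays, and only rTF replicate 1 reached into the rCPS1 range, above rCPS1 replicate 2. The means were 8.93 ± 0.14 and 9.18 ± 0.081 (SD, n = 4 each), and the 95% interval of the difference ran from -8.23e-05 to 0.50. The limma unadjusted p was 0.0501, the adjusted p 0.98 and the two-sided exact permutation p 0.0571. Of the genes tested, 1035 had a smaller unadjusted p. Its unadjusted p was under 0.05 in 6 of the alternative fits, down to 0.0227 with a trended variance, and its adjusted p was under 0.05 in none. The value ranged from 0.19 to 0.31 with 1 array left out, and was 0.26 without rTF replicates 1 and 2.

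Casp4 (probe set 17514435) was at 10.97, 10.07, 10.94 and 10.96 in rTF replicates 1 to 4 and at 11.09, 10.91, 10.94 and 11.05 in rCPS1 replicates 1 to 4. rTF replicate 2 was low, and the other 7 arrays lay within a narrow range. The difference was 0.26 ± 0.20 (SE), with a limma adjusted p of 0.98 and a 95% interval from -0.18 to 0.70. Without rTF replicate 2 it was 0.041 ± 0.11. The T and NK cell marker mean was 7.45 in rTF replicate 2, against 6.18 to 6.52 in the other rTF arrays. Of those markers Klrb1c alone was at or under the median row. The same array had the highest rTF means of dendritic cell (6.50), neutrophil (6.92) and endothelial (11.42) markers. Its hepatocyte marker mean (7.36) was the lowest of the rTF group. The part of any of these cells in the low Casp4 value was not tested.

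Casp1 and Casp4 are neighbours on mouse chromosome 9, followed by Casp12, in the RefSeq annotation. Both had their highest value in rCPS1 replicate 1 and their lowest in rTF replicate 2. Over the 8 arrays, which share both groups, the Pearson correlation between their levels was 0.75 and Spearman's rho 0.76, and r was 0.57 without the 2 arrays farthest from the Casp1 median. Because these adjacent genes had their extremes in the same arrays, the 250 bases before 1 annotated start of each are shown (RefSeq, GRCm38.p6, plus strand, chr9:5298267-5298516 for Casp1 and chr9:5308599-5308848 for Casp4). Capitals mark matches to the motifs searched.
Casp1: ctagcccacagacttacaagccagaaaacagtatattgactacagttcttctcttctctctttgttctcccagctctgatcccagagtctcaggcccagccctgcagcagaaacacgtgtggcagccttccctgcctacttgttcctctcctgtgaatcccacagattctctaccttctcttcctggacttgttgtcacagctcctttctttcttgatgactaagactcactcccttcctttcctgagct
Casp4: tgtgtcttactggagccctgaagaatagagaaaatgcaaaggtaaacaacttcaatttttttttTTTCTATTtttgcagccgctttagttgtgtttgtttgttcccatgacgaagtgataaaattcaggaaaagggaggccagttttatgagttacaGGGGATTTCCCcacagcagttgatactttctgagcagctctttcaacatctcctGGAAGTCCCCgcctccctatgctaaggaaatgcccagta
Both strands were searched for the interferon regulatory factor core AANNGAAA, the STAT site TTCNNNGAA, the AP-1 site TGANTCA, the PU.1 core AGGAAGT and the NF-kappaB consensus. The Casp4 window held 3 matches to the NF-kappaB consensus, of which 2 overlap and begin at -93 and -92 and the other begins at -39 from the start site, and a match to AANNGAAA at -186. The table holds a second Casp4 start nearby, whose window (chr9:5308610-5308859) is not printed. It held the same 4 matches and a further AANNGAAA match at -9 from that start. The Casp1 window held no match. Of 32851 promoter windows of this length, 7.25% held the NF-kappaB consensus, 21.3% AANNGAAA, 7.02% TTCNNNGAA, 6.75% TGANTCA and 7.69% AGGAAGT. A match describes the letters and is no evidence of binding, and the lack of one says only that these letters are not in this window.

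Gsdmd, the substrate of both caspases and the pore itself, had the smallest spread of the members with rCPS1. Gsdmd (probe set 17312280) was at 8.19, 7.81, 7.78 and 7.90 in rTF replicates 1 to 4 and at 8.05, 7.94, 7.97 and 8.01 in rCPS1 replicates 1 to 4. The rCPS1 values all lay above rTF replicates 2, 3 and 4 and below rTF replicate 1. The means were 7.92 ± 0.19 and 8.00 ± 0.048 (SD, n = 4 each), a difference of 0.077 ± 0.12 (SE), with a 95% interval from -0.19 to 0.34. Gsdmd was the single member with a second array row (probe set 17318176), near the median of all rows at 3.92 ± 0.13 with rTF and 3.80 ± 0.16 with rCPS1. The rows disagreed in sign, the second at -0.13, and their mean gave a difference of -0.024.

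**Figure D3:**
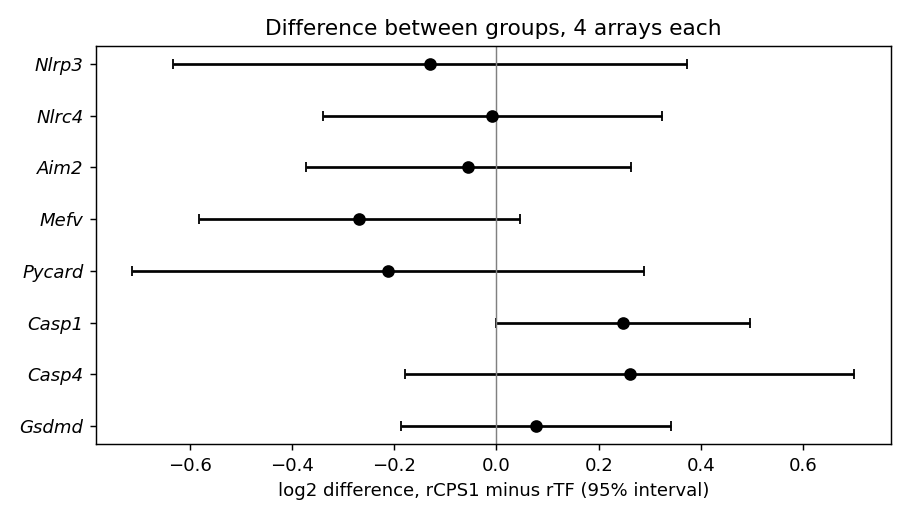
Log2 difference between groups, rCPS1 minus rTF (horizontal axis), for each member, with its 95% interval from the limma fit over 4 arrays in each group. Each interval includes 0, that of Casp1 by the least.

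The levels of several members went together across arrays. Nlrp3 and Nlrc4 had a Pearson correlation of 0.83 over 8 arrays (Spearman's rho 0.45), but r was 0.071 without rTF replicate 1 and rCPS1 replicate 3, so the relation rests on those arrays. Gsdmd and Pycard ran opposite to each other, with r = -0.87 and rho -0.76, and r was -0.65 without rTF replicates 1 and 2. Casp1 and Gsdmd had r = 0.74 and rho 0.81, with r = 0.41 without rTF replicates 2 and 3. These are 4 of 28 pairs, with that of the caspases, picked after all were seen, and the points share the 2 groups and the arrays. Among 162 other genes of the pathway and cell type marker lists, the gene most like Nlrp3 was the bacterial lipoprotein receptor gene Tlr2 (r = 0.84), followed by Naip5 (0.84). These genes, and those named below for the other members, were picked as the 2 highest of 162 correlations over 8 arrays. High values can arise from that picking alone, and none was given a test. The gene most like Casp1 was Il18bp (0.84), the secreted trap for interleukin 18, followed by the Kupffer cell receptor gene Marco (0.83). For Mefv it was Ninj1 (0.80), then Cd14 (0.79), and for Gsdmd it was Pstpip2 (0.88), then Naip2 (0.81). The leading gene was Cd163 for Nlrc4 (0.88), with Tlr2 next (0.88, but rho 0.38), Serpinb6a for Aim2 (0.75), with Gzma next (0.71), and Itgae for Pycard (0.86), with Cd3d next (0.86). For Casp4, where rTF replicate 2 was low, it was the hepatocyte gene Cyp3a11 (0.90, but rho 0.31) and then Myd88 (0.87, rho 0.55).

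The members act within a wider pathway, of which 66 of 73 further listed genes were measured. None had a limma adjusted p under 0.05. At an unadjusted p under 0.05 there were 4 lower and 3 higher with rCPS1, against 2.79% and 1.88% of all genes, and the groups did not overlap for 2 lower and 2 higher genes, against 1.97% and 0.947%. The lists were 30 lower and 36 higher in all, with a median log2 difference of 0.014.

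Among 11 other sensors, 8 were higher and 3 lower. Nlrp6, a sensor best known from the intestine, was at 3.34 ± 0.30 with rTF and 3.74 ± 0.24 with rCPS1 (SD, n = 4 each), a difference of 0.40 ± 0.18 (SE) with a limma unadjusted p of 0.0497. Its rTF mean was below the median of all rows, so the level is close to the dim end of the arrays. Nod1, a peptidoglycan sensor, differed by 0.13 ± 0.12, Nlrp12 by -0.20 ± 0.25 and Naip5, the flagellin receptor that pairs with Nlrc4, by -0.14 ± 0.15. The Naip genes are close copies of each other, and their values are uncertain because probes may detect more than one.

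Of 18 genes that license or partner the sensors, 10 were higher and 8 lower. Nek7, the kinase that NLRP3 needs for assembly, was at 9.43, 9.51, 9.54 and 9.51 in rTF replicates 1 to 4 and at 9.69, 9.72, 9.61 and 9.57 in rCPS1 replicates 1 to 4. Each rCPS1 array lay above each rTF array, but the difference was small, at 0.15 ± 0.098 (SE), with a limma unadjusted p of 0.162. The two-sided exact permutation p was 0.0286, the smallest that 4 against 4 arrays can give. Any gene whose groups do not overlap reaches it, which held for 2.92% of all genes. Pstpip1, the adaptor that binds pyrin, was at 5.92, 6.05, 6.41 and 6.24 with rTF and at 5.66, 5.98, 5.53 and 5.71 with rCPS1. The groups met at a single array, rCPS1 replicate 2, and the difference was -0.44 ± 0.14, with a limma unadjusted p of 0.0130 and an adjusted p of 0.98. Mlkl, the pore protein of necroptosis, differed by 0.36 ± 0.16 (unadjusted p of 0.0479 in limma) and the ATP-gated channel gene P2rx4 by -0.16 ± 0.12.

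Guanylate-binding proteins open bacterial vacuoles and bring lipopolysaccharide to caspase-4. Their list also held the immunity-related GTPase genes Igtp and Irgm1, which were not taken to have that role. All 5 measured genes of the list had higher means with rCPS1, with a median difference of 0.36. Gbp7 was at 10.44, 10.41, 10.52 and 10.64 in rTF replicates 1 to 4 and at 11.24, 10.69, 10.71 and 11.15 in rCPS1 replicates 1 to 4. Its groups did not overlap, and the difference was 0.45 ± 0.15 (SE), with a limma unadjusted p of 0.0142 and an adjusted p of 0.98. Igtp differed by 0.36 ± 0.17, Gbp3 by 0.40 ± 0.23 and Irgm1 by 0.20 ± 0.16, none with an unadjusted p under 0.05. Gbp genes are near-identical copies in part, and their values are uncertain. The list was given no test of its own.

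Of 8 other caspases and pore proteins, 4 were higher and 4 lower, and none had an unadjusted p under 0.05. The counts include Gsdma, Gsdmc and Gsdme, all under the median row. Their means were 2.51, 2.10 and 3.09 with rTF and 2.70, 2.11 and 3.02 with rCPS1. Casp12, the third gene of the chromosome 9 group, differed by 0.32 ± 0.20 (SE), the executioner caspase gene Casp6 by -0.37 ± 0.18 and the apoptosome caspase gene Casp9 by -0.13 ± 0.12. Casp8, an apoptotic caspase that can also cut gasdermin D, differed by 0.025 ± 0.13, and Ninj1, which ruptures the membrane after pores have formed, by -0.13 ± 0.15.

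The cytokines that inflammasomes mature showed overlapping groups. Il1b was at 10.51, 10.62, 10.89 and 10.95 in rTF replicates 1 to 4 and at 10.38, 10.69, 10.66 and 10.48 in rCPS1 replicates 1 to 4, a difference of -0.19 ± 0.14 (SE), with the 2 highest values in the rTF group. Il18 differed by -0.027 ± 0.19, with a 95% interval from -0.44 to 0.39, and Il1a, which is released on lysis, by 0.045 ± 0.12. The receptor gene Il1rap, the shared signalling chain for interleukin 1, differed by -0.39 ± 0.15 (unadjusted p of 0.0289 in limma). Il18rap differed by -0.33 ± 0.19 and the alarmin gene Il33 by -0.46 ± 0.29. In this list of 8, 6 were lower and 2 higher.

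The smallest unadjusted p-values of the pathway were those of 2 natural blockers of interleukin 1, both lower with rCPS1. Il1rn, the receptor antagonist, was at 9.28, 9.27, 9.09 and 9.36 in rTF replicates 1 to 4 and at 8.88, 8.90, 9.001 and 8.72 in rCPS1 replicates 1 to 4. All rCPS1 arrays lay below all rTF arrays, with a difference of -0.37 ± 0.11 (SE), a limma unadjusted p of 0.00752 and an adjusted p of 0.98. Il1r2, the decoy receptor, was at 7.42, 8.35, 8.13 and 8.09 with rTF and at 7.22, 7.33, 7.29 and 7.11 with rCPS1. Its groups did not overlap either, and the difference was -0.76 ± 0.18, with a limma unadjusted p of 0.00205 and an adjusted p of 0.862. Il1r2 is also one of the neutrophil markers, all of which were lower with rCPS1 as given for Mefv above, and the part of those cells was not tested. Of the 16 inhibitor and repair genes, 9 were lower and 7 higher, and Il18bp differed by 0.23 ± 0.14 and Trim30a by 0.41 ± 0.21.

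**Figure D4:**
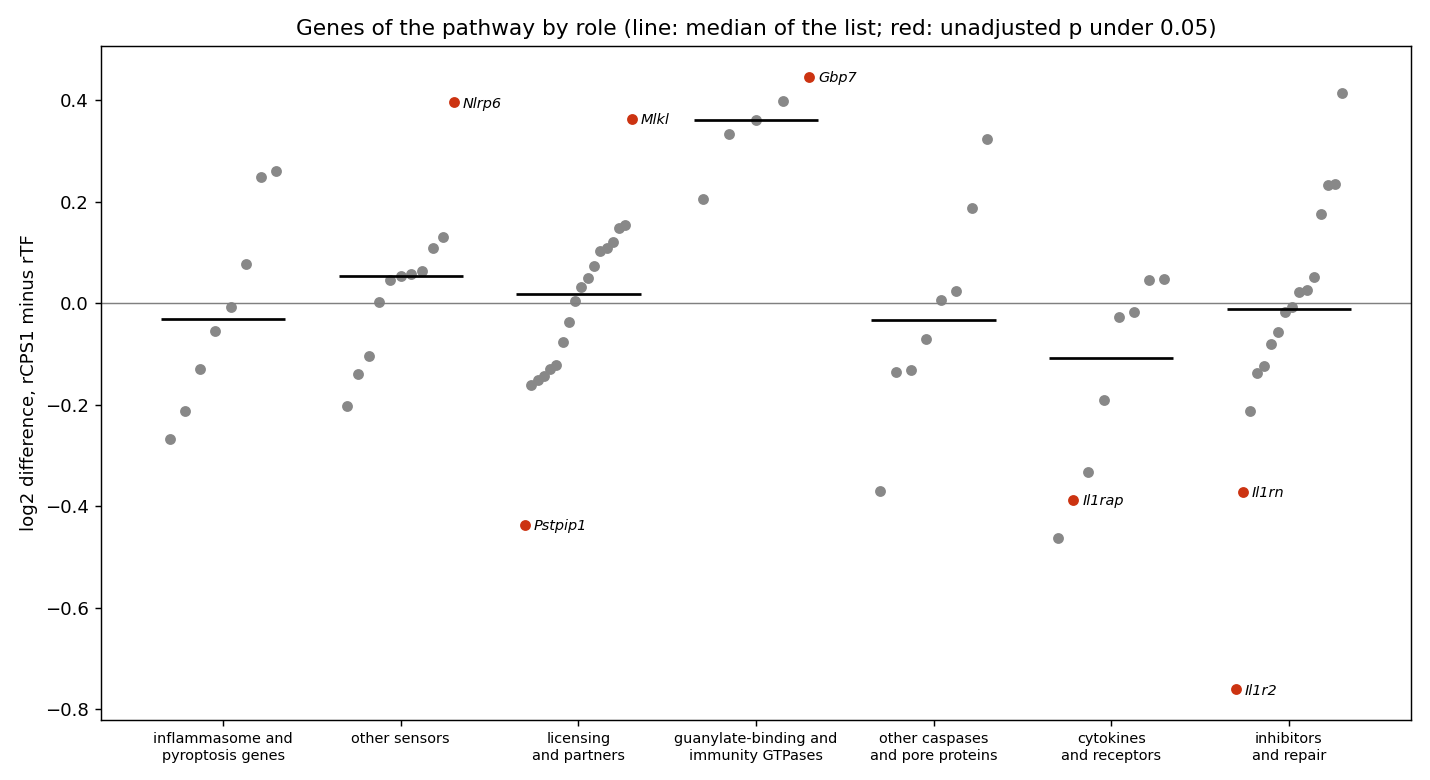
Log2 difference, rCPS1 minus rTF (vertical axis), of each measured gene of the pathway, grouped by role, with a line at each list's median and red for an unadjusted p under 0.05. The members lay between -0.27 and 0.26, none of them red, the GTPase list lay above 0 throughout, and Il1r2 was the lowest gene at -0.76.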

How the data were processed

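Total RNA of hepatic macrophages was extracted with Qiagen RNeasy and, per the labels' protocols, labelled with an Affymetrix kit (WT Plus). The deposited values are log2 expression levels that the authors made with RMA, per the submitters' processing notes, which also name limma. RMA includes quantile normalization, which can hide a change in nearly every gene at once. The deposited columns were not fully equal in distribution, with medians of 3.55 to 3.68. Array design, genome build, macrophage isolation and its time after acetaminophen were not given in the labels used here.

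Of 41345 rows, 23521 carried a single gene symbol in the platform table and gave 22180 genes. The 1814 rows with several symbols and the 16010 without any were not tested. All 8 members matched the RefSeq gene table by Entrez ID. Tests used lmFit and eBayes of limma 3.58.1 (R 4.3.3), two-sided and without covariates, with Benjamini-Hochberg adjustment over all genes at 0.05. Single genes were also given an exact permutation test over all 70 assignments. The members and lists were chosen with earlier results of these data known. Named genes are all members, up to 4 genes of smallest p in each other list, 9 genes set by name (Il1b, Il18, Il1a, Nek7, Naip5, Casp8, Ninj1, Il1rn and Il1r2), and for each member the 2 listed genes of highest correlation. Marker lists were monocyte, neutrophil, Kupffer cell, macrophage, sinusoidal endothelium, hepatocyte, T and NK cell, B cell and dendritic cell. The fit was tested on simulated data for these 22180 genes, recovering 12% of 50 genes changed by 0.5 on the log2 scale and 80% of 50 changed by 1. It made 10 false calls. The largest difference of a member, 0.27, was below the smallest change simulated, 0.5, so a real change of that size could be missed. Samples were grouped by title. Same-numbered arrays of the groups did not deviate together (correlations of -0.12 to 0.025), so the replicate number was used as a block only as an alternative. Others were a filter on dim rows, trended and robust variance, array weights, quantile normalization, the mean of a gene's rows, all rows tested, and each array left out.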

Additional observations from a re-analysis of the deposited data

Results flagged for a closer look

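Dixon's ratio was computed for the extreme array of each group of 4, over the members, the named genes and the marker list means. An array stood apart in 11 of 112 groups. A rate of 1 in 20 gives 5.6 for independent groups chosen without regard to their values. Some genes here were picked by small p or by correlation with a member, so 5.6 is no chance expectation for these groups. Of the members, Nlrc4 was at 6.63 (log2) in rTF replicate 1, the other rTF arrays at 6.07 to 6.10, and Pycard was at 4.52 in the same array, against 5.45 to 5.56. Casp4 was at 10.07 in rTF replicate 2, against 10.94 to 10.97. Casp6 was at 7.47 in rTF replicate 2 (other rTF arrays 6.81 to 6.89) and at 7.01 in rCPS1 replicate 1 (other rCPS1 arrays 6.47 to 6.56). Gbp3 was at 8.27 in rCPS1 replicate 2, against 8.996 to 9.08, and Nlrp6 at 3.38 in rCPS1 replicate 3, against 3.81 to 3.89. Gzma was at 8.50 in rTF replicate 2, against 6.75 to 6.85, and Naip2 at 7.32 in rTF replicate 1, against 6.18 to 6.37. The monocyte marker mean was 8.96 in rTF replicate 3, against 8.55 to 8.62, and the hepatocyte marker mean was 7.15 in rCPS1 replicate 4, against 7.75 to 7.83.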

How the results depend on the processing

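The count of genes with an adjusted p under 0.05 was 0 with limma under every alternative run. At an unadjusted p under 0.05 it ranged from 888 to 1879, the latter over all array rows. Under the replicate block the Casp1 difference was 0.25 with a limma unadjusted p of 0.0683, and the block changed no call. Over all alternative fits the Casp1 unadjusted p ran from 0.0227 to 0.121. The count of members at an unadjusted p under 0.05, which was 0, became 1 with the filter on dim rows, trended variance, array weights, quantile normalization and the mean of all rows, where the member was Casp1. It was also 1, Pycard, with rTF replicates 1 and 2 both left out (added after seeing the data), and 0 to 2 with 1 array left out (Casp1 and Pycard without rTF replicate 1, Mefv without rTF replicate 2). The count of lower members was 2 without both of those arrays and 3 to 5 with 1 array left out. The sign turned for Nlrc4 with array weights (0.041), for Gsdmd with the mean of its rows (-0.024), and without both arrays for Nlrp3 (0.090), Nlrc4 (0.13) and Aim2 (0.052). With 1 array left out, Nlrp3 ran from -0.32 to 0.033, Nlrc4 from -0.059 to 0.13 and Aim2 from -0.16 to 0.028. Mefv, Pycard, Casp1 and Casp4 kept their sign in the 17 other fits. The cause of these shifts was not tested.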
